A study of Mus musculus and Sus scrofa with 18 samples.

Results

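The 40 mouse genes described here encode the machinery by which a nerve terminal releases transmitter from synaptic vesicles. They were taken as a list of gene symbols matched to the Ensembl identifiers of the mouse count table. No measured value entered the matching, but the list was chosen with earlier results of these data known. All 40 were among its 55357 identifiers and among the 19463 genes with enough counts to be tested. RNA from the striatum of 9 mice was sequenced from its 3′ ends, 3 mice in each of 3 groups. WT mice received an adeno-associated virus with a control guide RNA (AAV-Ctrl gRNA). HD 140Q-KI mice were heterozygous, with exon 1 of 1 of their Htt alleles replaced by its human counterpart bearing a long CAG repeat. The untreated HD mice were given AAV-CasRx/Ctrl gRNA, and the treated HD mice AAV-CasRx/HTT gRNAs, with 4 guides against the human exon. CasRx is an RNA-cutting Cas13d nuclease, here driven by the CAG promoter, which is active in many cell types, and packaged like the guides in AAV9. All mice had both striata injected at 6 months of age and tissue collected 1.5 months later. WT mice received no CasRx, so that the HD allele and the CasRx vector cannot be told apart in a comparison of HD with WT mice.

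Release follows a fixed order of steps. Vesicles are filled by transmitter transporters, held by synapsins and Rab3 proteins, primed at the active zone by the Munc13 and RIM proteins, and fused with the membrane when the vesicle SNARE VAMP2 zips up with syntaxin 1 and SNAP-25. Complexins hold the partly zipped complex, synaptotagmins and Doc2 proteins sense calcium, and NSF with its SNAP adaptors takes the complex apart afterwards. In the striatum most neurons are GABAergic projection neurons, whereas the glutamatergic terminals come from cortex and thalamus and have their cell bodies, and most of their mRNA, outside the tissue. In bulk tissue fewer cells of a type and less RNA per cell cannot be told apart.

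Libraries held 27184356 to 32102121 counts, of which the 40 genes took 1.18% to 1.65%. Levels are given as CPM, counts per 1000000 counts of a library, after scaling by edgeR's TMM factors, and changes as log2 fold changes ± SE from edgeR's quasi-likelihood test, with p-values adjusted over all 19463 genes by Benjamini-Hochberg. Htt, the gene targeted, was at 182 to 191 CPM in WT, 140 to 150 CPM in untreated and 131 to 140 CPM in treated mice. It was lower than WT in both HD groups (log2 fold change −0.37 ± 0.06, adjusted p = 0.00656, and −0.46 ± 0.06, adjusted p = 0.00425), while treated and untreated mice differed by −0.10 ± 0.06 (adjusted p = 0.942). Tags at the 3′ end do not separate the 2 alleles. The paper measured the mutant allele itself and reported less mutant HTT mRNA by RT-qPCR in treated than in untreated mice. It also reported less mutant protein by western blot, in both cases at every age of injection. The guides were designed against human exon 1, and whether they also act on the mouse allele was not tested here. Counts of 4 Y-linked genes were 3435 to 5005 in the 3 WT mice and untreated mouse 1 and 0 in the other 5 mice. Sex and group therefore cannot be told apart in treated compared with WT mice, and are mixed in the comparisons with untreated mice. In cortical and projection neuron markers WT mouse 1 stood apart from WT mice 2 and 3. A list of 13 cortical excitatory neuron markers summed to 575 CPM in it, against 325 and 297 CPM. A list of 15 striatal projection neuron markers summed to 9168 CPM in WT mouse 1 and to 12049 and 12129 CPM in the others. WT mouse 1 was also the highest WT mouse for 28 of the 40 genes, which holds for 30.3% of all genes tested. Over genes in general, however, WT mice 2 and 3 were the least alike pair. Their chi-square per degree of freedom was 51.33, against 38.96 and 32.23 for their pairs with mouse 1. The calls made without WT mouse 1 are given after the comparisons.

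Compared with WT mice, untreated HD mice had lower levels of Sv2c, Doc2b and Slc32a1 and higher levels of Unc13b, Syp, Sv2b and Syn1. These 7 of 40 genes passed the test, 4 higher and 3 lower, where 10.7% of all genes passed it (4.58% higher and 6.10% lower). The median log2 fold change of the 40 genes was 0.18, against 0.02 for all genes, and 30 of the 40 estimates were above 0 and 10 below, where 52.1% and 47.9% of all genes were. The untreated and WT mice did not overlap for 16 genes, 12 higher and 4 lower (30.1% of all genes, 15.0% higher and 15.1% lower). The lowest estimates were those of Doc2b, at 0.465 of the WT level, and Sv2c, at 0.498. Doc2b and Sv2c passed in 19 and Slc32a1 in 18 of 20 fits, counting the one reported and those with other scalings, tests, filters, covariates or libraries left out, while the 4 higher genes passed in 8 to 13. In the 9 fits with 1 library left out, Doc2b, Sv2c and Slc32a1 passed in all 9. Unc13b passed in 6 of these 9, Syp in 2, and Sv2b and Syn1 in 1 each. The fit without WT mouse 1 was among those in which each of these 4 passed. All fits re-use the same mice, so they are not independent checks.

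**Figure D1:**
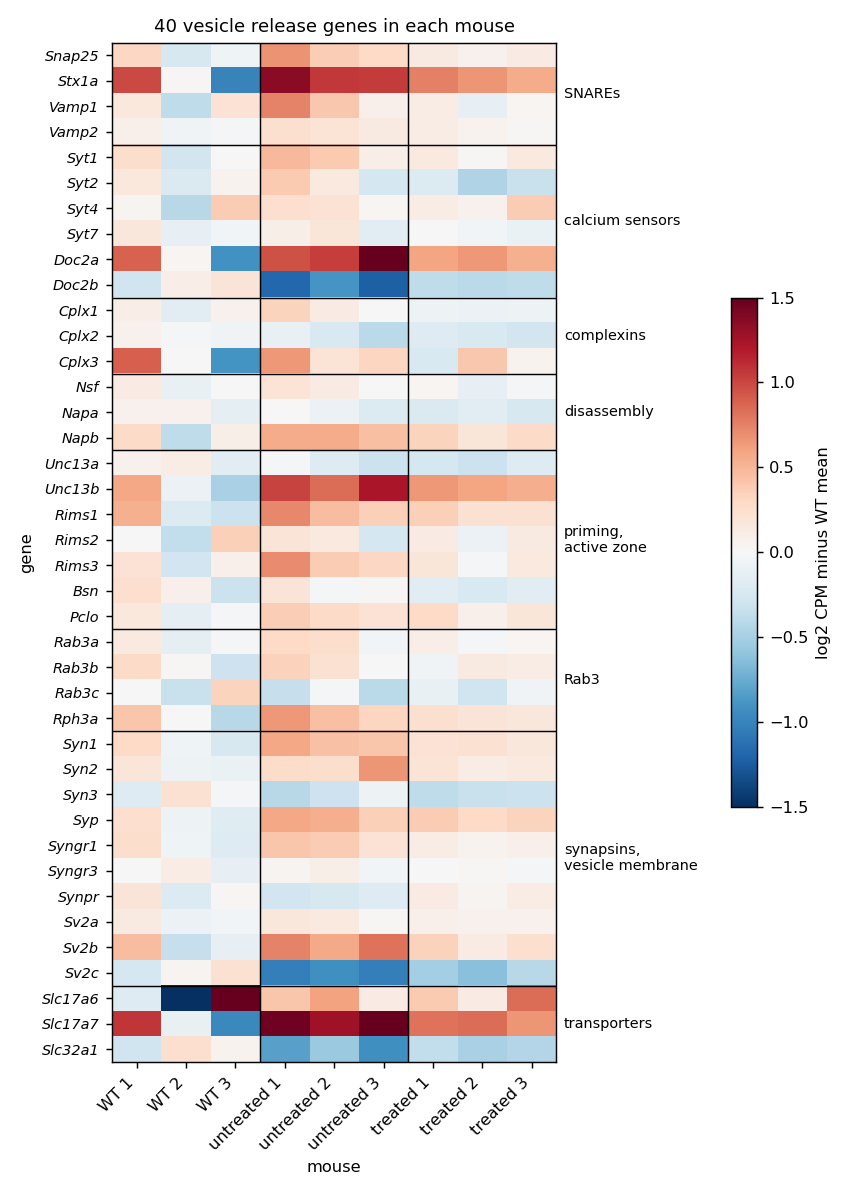
Level of each of the 40 genes in each of the 9 mice, as log2 CPM minus the mean of the WT mice; rows are genes in their role groups, columns are mice. Doc2b, Sv2c and Slc32a1 are blue in all 6 HD mice and darkest in the untreated ones, and WT mouse 1 is red for Stx1a, Doc2a, Cplx3 and Slc17a7 where WT mouse 3 is blue.

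The promoters of called genes are shown because these genes moved in opposite directions. RefSeq windows (GRCm38.p6) of the 250 bases before the start were held for 31 of the 40 genes in 42 windows, and for 6 of the 7 called genes. Doc2b is named only. Sv2b has 4 windows and is not printed. The other 5 are given 5′ to 3′ on the strand of the gene, with matches to a motif in capitals. The letters searched on both strands were GGGCGG (GC box), TGACGTCA (the cAMP response element), TTCAGCACC (the left part of the RE1 element bound by REST, a repressor of neuronal genes), TATAAA and CACGTG (E-box). TGACGTCA and CACGTG read the same on both strands, and none of the matches printed overlap. Sv2c lies at chr13:96132578-96132827 (minus strand), Slc32a1 at chr2:158610508-158610757 (plus), Syn1 at chrX:20920919-20921168 (minus), Syp at chrX:7638330-7638579 (plus) and Unc13b at chr4:43058703-43058952 (plus).
Sv2c: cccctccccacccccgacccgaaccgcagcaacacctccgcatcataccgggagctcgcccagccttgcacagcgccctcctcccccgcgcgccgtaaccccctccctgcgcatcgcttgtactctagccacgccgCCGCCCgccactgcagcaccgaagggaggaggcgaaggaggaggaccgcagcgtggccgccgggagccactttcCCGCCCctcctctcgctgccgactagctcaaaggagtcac
Slc32a1: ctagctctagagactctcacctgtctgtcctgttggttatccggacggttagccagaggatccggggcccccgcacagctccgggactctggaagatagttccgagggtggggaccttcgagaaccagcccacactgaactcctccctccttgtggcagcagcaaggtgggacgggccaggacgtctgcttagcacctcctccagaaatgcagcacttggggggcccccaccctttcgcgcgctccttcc
Syn1: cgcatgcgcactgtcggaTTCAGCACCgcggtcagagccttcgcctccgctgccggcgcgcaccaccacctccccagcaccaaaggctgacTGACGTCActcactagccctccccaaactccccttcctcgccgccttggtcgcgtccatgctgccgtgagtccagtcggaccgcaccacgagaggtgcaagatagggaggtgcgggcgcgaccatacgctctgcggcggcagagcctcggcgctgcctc
Syp: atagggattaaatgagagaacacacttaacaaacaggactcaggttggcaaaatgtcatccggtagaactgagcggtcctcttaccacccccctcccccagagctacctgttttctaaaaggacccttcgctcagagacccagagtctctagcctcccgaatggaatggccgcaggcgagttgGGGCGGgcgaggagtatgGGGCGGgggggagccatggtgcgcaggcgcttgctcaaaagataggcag
Unc13b: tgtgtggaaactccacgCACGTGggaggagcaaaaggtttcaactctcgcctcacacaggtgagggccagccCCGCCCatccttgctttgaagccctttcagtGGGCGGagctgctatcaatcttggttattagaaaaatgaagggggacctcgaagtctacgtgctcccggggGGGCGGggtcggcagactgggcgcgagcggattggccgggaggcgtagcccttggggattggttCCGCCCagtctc

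The Syn1 window held the left part of RE1, found in 0.302% of all 32817 promoter windows and in no other window of the 40 genes, and a cAMP response element, found in 1.55% of all windows. GC boxes stood in the Sv2c, Syp and Unc13b windows, where CCGCCC is the GC box on the other strand, and in 24 of the 42 windows of the 40 genes (57.1%) against 32.7% of all windows. The Unc13b window also held an E-box. No searched motif matched in the Slc32a1 window. The Sv2b windows, which are not printed, held an E-box and TATA boxes, found in 6.02% and 12.4% of all windows. Among called genes, GC boxes thus matched in both directions, and the other motifs only in genes that rose. Doc2b, which fell, had no window, and Sv2b had several. These are matches of letters only, in few genes, and whether a motif goes with the direction was not tested.

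Among the vesicle membrane proteins, SV2 is a transporter-like glycoprotein with 3 paralogs, of which SV2C is enriched in the basal ganglia. Sv2c was at 166, 206 and 233 CPM in WT mice 1 to 3, at 98.2, 105 and 97.8 CPM in untreated mice and at 141, 130 and 149 CPM in treated mice. The 3 groups did not overlap, and every treated mouse lay between the highest untreated and the lowest WT mouse. Sv2c fell in untreated compared with WT mice (log2 fold change −1.01 ± 0.12, adjusted p = 0.0013). It also fell in treated compared with WT mice (−0.53 ± 0.11, adjusted p = 0.0393), a call made in 7 of 20 fits. Treated and untreated mice, in a comparison that shares the untreated group with the first, differed by 0.48 ± 0.12 at an unadjusted P of 0.00216 that did not pass adjustment (adjusted p = 0.736).

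Sv2b, the paralog found mainly in glutamatergic neurons, had the opposite order. Its level was 275, 158 and 184 CPM in WT, 335, 298 and 352 CPM in untreated and 255, 218 and 238 CPM in treated mice. All untreated mice were above all WT mice, and WT mouse 1 was nearest to them and above every treated mouse. Sv2b rose in untreated mice (log2 fold change 0.67 ± 0.18, adjusted p = 0.0427) and its difference between treated and WT mice was 0.20 ± 0.18 (adjusted p = 0.556). Between treated and untreated mice it was −0.47 ± 0.18 (unadjusted P = 0.0251, adjusted p = 0.886). Sv2a, the paralog found in most neurons, did not pass in any comparison, with estimates from −0.04 to 0.11. Within a library the ratio of Sv2b to Sv2c averaged 1.07 ± 0.509 (SD, n = 3) for WT, 3.28 ± 0.400 for untreated and 1.70 ± 0.111 for treated mice. The ratio in WT mouse 1 was 1.66, within the treated range of 1.59 to 1.81, and its size also depends on how well each mRNA is captured, so only its shift between mice can be read.

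Synapsin I (Syn1), which tethers vesicles in the reserve pool, and synaptophysin (Syp), an abundant vesicle membrane protein, both rose in untreated mice. Both genes lie on the X chromosome, and sex is mixed with group here. Neither passed in the fit with Y-linked expression as a covariate, given below. Syn1 was at 379, 294 and 261 CPM in WT, 461, 417 and 411 CPM in untreated and 357, 359 and 345 CPM in treated mice. Untreated mice were all above WT mice, and treated mice lay within the WT range, between WT mice 1 and 2. The log2 fold change of Syn1 was 0.47 ± 0.12 in untreated (adjusted p = 0.0439), 0.18 ± 0.12 in treated compared with WT mice (adjusted p = 0.429) and −0.28 ± 0.12 in treated compared with untreated mice (unadjusted P = 0.0485, adjusted p = 0.889). Whether the counting used strand is not given in the sources used here, and 15 of the 40 genes share exon bases with another gene (GENCODE M21). Syn1 overlaps Araf on the other strand, with 38464 counts over the 9 libraries against 96754 for Syn1, whereas the partners of Doc2b, Slc32a1, Sv2b and Syp had 34 to 721 counts. In untreated compared with WT mice the estimate was −0.15 for Araf, opposite in sign to Syn1. It was 0.94 for Gm14703, the partner of Syp, and −1.44 for Gm12339, the partner of Doc2b, each with the sign of its pair. None of these partners passed, and whether reads were mixed was not tested.

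Syp was at 893, 707 and 661 CPM in WT, 1120, 1093 and 961 CPM in untreated and 973, 918 and 940 CPM in treated mice. Every HD mouse, treated or not, was above every WT mouse. Syp rose by 0.49 ± 0.12 in untreated mice (adjusted p = 0.0317), while its difference of 0.32 ± 0.12 in treated mice did not pass (adjusted p = 0.151). Treated and untreated mice overlapped and differed by −0.17 ± 0.12 (adjusted p = 0.974).

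Of the other 6 vesicle membrane genes and synapsins, none passed in any comparison. Syngr1, a relative of synaptophysin, was at 413, 330 and 302 CPM in WT, 461, 449 and 400 CPM in untreated and 374, 359 and 364 CPM in treated mice. Untreated mouse 3 was below WT mouse 1, and all treated mice were below all untreated mice (log2 fold change −0.26 ± 0.11, unadjusted P = 0.0475, adjusted p = 0.889). Synpr (synaptoporin), another relative of synaptophysin, was at 125, 94.5 and 111 CPM in WT, 89.7, 92.4 and 95.9 CPM in untreated and 119, 112 and 118 CPM in treated mice. All treated mice were above untreated mice 1 to 3, as for the 3 genes that fell, by 0.33 ± 0.09 (unadjusted P = 0.00601, adjusted p = 0.829). Syn3 had only 9.09 to 14.2 CPM and shares exon bases with Timp3 on the other strand, which had 27823 counts over the 9 libraries against 2801 for Syn3, so reads of the pair may be mixed. In untreated compared with WT mice Timp3 was lower (log2 fold change −0.58, adjusted p = 0.0412) and Syn3 had an estimate of −0.27.

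**Figure D2:**
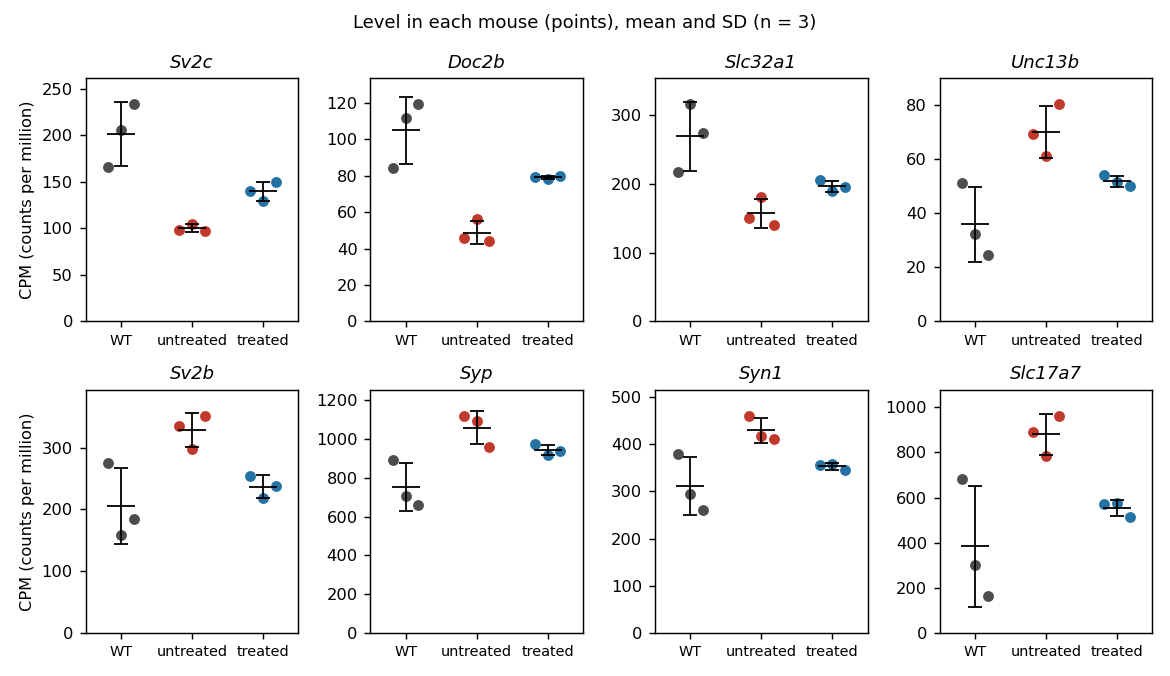
CPM in each mouse for the 7 genes that passed the test in untreated compared with WT mice and for Slc17a7, which did not; each point is 1 mouse in order of replicate number, and bars give the mean and SD of 3 mice. Sv2c, Doc2b and Slc32a1 show 3 groups without overlap with treated mice in the middle, and for Slc17a7 the WT mice run from 165 to 684 CPM.

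The calcium sensors held the largest fall. Doc2b, a high-affinity C2-domain sensor tied to spontaneous and asynchronous release, was at 84.2, 111 and 119 CPM in WT, 45.7, 56.1 and 44.4 CPM in untreated and 79.4, 78.2 and 79.6 CPM in treated mice. Again the 3 groups did not overlap, although WT mouse 1 was only a little above the treated mice. Doc2b fell in untreated compared with WT mice (log2 fold change −1.11 ± 0.13, adjusted p = 0.00158). In treated mice the difference from WT was −0.41 ± 0.13 (adjusted p = 0.113), and from untreated mice 0.70 ± 0.13 (unadjusted P = 0.000399, adjusted p = 0.736). The last was the smallest unadjusted P of the 40 genes in that comparison. Doc2b was the 1 gene of the 40 that DESeq2 called there (adjusted p = 0.00176).

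Doc2a, its paralog, gave an estimate of 1.03 ± 0.36 in untreated mice (adjusted p = 0.0976) from levels of 4.92 to 17.2 CPM in WT and 18.1 to 27.1 CPM in untreated mice. It shares exon bases with Ino80e, which had 10402 counts against 4056 for Doc2a. Syt1, the main fast calcium sensor of forebrain synapses, was at 1110, 767 and 932 CPM in WT, 1294, 1215 and 981 CPM in untreated and 1028, 937 and 1026 CPM in treated mice. The groups overlapped in all 3 comparisons, and its largest estimate was 0.31 ± 0.14 in untreated compared with WT mice (adjusted p = 0.19). Syt2, the fast sensor of hindbrain and some interneuron synapses, was at 90.3, 69.6 and 83.7 CPM in WT, 106, 89.7 and 67.2 CPM in untreated and 69.8, 59.1 and 63.8 CPM in treated mice. Treated mice were on the low side, at −0.45 ± 0.16 compared with untreated mice (unadjusted P = 0.0186, adjusted p = 0.886). Syt4 and Syt7, which act in dense-core vesicle and slow release, had estimates between −0.09 and 0.16 in all 3 comparisons.

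The vesicular transporters mark what a neuron releases. Slc32a1, the transporter that loads GABA and glycine, was at 216, 315 and 274 CPM in WT, 151, 181 and 140 CPM in untreated and 205, 189 and 195 CPM in treated mice. The groups did not overlap and treated mice were again in the middle. Slc32a1 fell in untreated mice (log2 fold change −0.77 ± 0.14, adjusted p = 0.0108), and its difference between treated and WT mice was −0.45 ± 0.14 (adjusted p = 0.101). Treated mice differed from untreated mice by 0.32 ± 0.14 (unadjusted P = 0.0425, adjusted p = 0.889).

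Slc17a7 (VGLUT1), the glutamate transporter of cortical neurons, was at 684, 301 and 165 CPM in WT, 893, 784 and 963 CPM in untreated and 571, 578 and 513 CPM in treated mice. WT mice spanned a wider range than both HD groups together, with WT mouse 1 above all treated mice, so that an estimate of 1.20 ± 0.40 in untreated mice, the largest of the 40, did not pass (adjusted p = 0.0848). Without WT mouse 1 it was 1.90 (adjusted p = 0.00143). In treated compared with WT mice the estimate was 0.53 ± 0.39 (adjusted p = 0.477), and 1.24 (adjusted p = 0.0175) without WT mouse 1. Slc17a6 (VGLUT2), the transporter of thalamic neurons, was at 14.9, 5.98 and 54.9 CPM in WT, 22.7, 25.8 and 18.4 CPM in untreated and 22.4, 18.5 and 30.6 CPM in treated mice. WT mouse 3 alone was far above the rest, and a list of 8 thalamic markers summed to 470 CPM in it and to 118 and 131 CPM in the other WT mice. Without WT mouse 3 the estimate for untreated mice went from −0.18 to 1.10 (adjusted p = 0.0945), and for treated mice from −0.09 to 1.21 (adjusted p = 0.105). The ratio of Slc17a7 to Slc32a1 averaged 1.57 ± 1.39 (SD, n = 3) for WT, 5.71 ± 1.27 for untreated and 2.83 ± 0.220 for treated mice. In WT mice 1 to 3 it was 3.16, 0.956 and 0.602, so WT mouse 1 was above all treated mice, which ran from 2.63 to 3.06, and the other WT mice were below them.

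In the SNARE group no gene passed. Snap25, a SNARE of the plasma membrane, was at 1827, 1249 and 1412 CPM in WT, 2363, 1902 and 1820 CPM in untreated and 1617, 1543 and 1609 CPM in treated mice. WT mouse 1 lay among the untreated mice, and all treated mice were below them. The estimate was 0.44 ± 0.15 in untreated compared with WT mice (adjusted p = 0.0885) and −0.35 ± 0.15 in treated compared with untreated mice (unadjusted P = 0.0403, adjusted p = 0.889). Stx1a (syntaxin 1A) was at 158, 80.9 and 39.8 CPM in WT, 203, 167 and 165 CPM in untreated and 135, 127 and 117 CPM in treated mice. Its WT spread resembled that of Slc17a7, with mouse 1 highest and mouse 3 lowest, and its estimate of 0.94 ± 0.38 did not pass (adjusted p = 0.135). Vamp2, the vesicle SNARE, was at 737, 674 and 691 CPM in WT, 827, 806 and 768 CPM in untreated and 753, 728 and 710 CPM in treated mice. Although untreated mice were above all others, the estimate was only 0.19 ± 0.07 (adjusted p = 0.115). Vamp1, its paralog, abundant in brainstem and spinal cord, was at 147, 102 and 153 CPM in WT, 220, 175 and 139 CPM in untreated and 143, 121 and 135 CPM in treated mice. The groups overlapped for Vamp1, and treated compared with untreated mice gave −0.42 ± 0.19 (unadjusted P = 0.0478, adjusted p = 0.889).

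Priming and active zone genes held 1 called gene of 7. Unc13b (Munc13-2), a priming factor that serves a subset of glutamatergic synapses, was at 51.1, 32.2 and 24.4 CPM in WT, 69.1, 61.1 and 80.2 CPM in untreated and 54.0, 51.5 and 50.1 CPM in treated mice. Untreated mice were above all others, and WT mouse 1 lay among the treated mice. It rose by 0.97 ± 0.23 on the log2 scale in untreated mice (adjusted p = 0.0287), with 0.53 ± 0.22 in treated compared with WT (adjusted p = 0.211) and −0.44 ± 0.22 in treated compared with untreated mice (adjusted p = 0.901). Its paralog Unc13a (Munc13-1), the main priming factor of forebrain synapses, had an estimate of −0.18 ± 0.10 in untreated mice (adjusted p = 0.29). Rims3, a short RIM protein, was at 169, 119 and 154 CPM in WT, 237, 190 and 180 CPM in untreated and 165, 142 and 161 CPM in treated mice. All untreated mice were above the other 6 mice, with 0.46 ± 0.14 compared with WT (adjusted p = 0.0684) and −0.38 ± 0.14 in treated compared with untreated mice (unadjusted P = 0.0254, adjusted p = 0.886). The scaffolds Bsn and Pclo and the RIM genes Rims1 and Rims2 did not pass, with estimates from 0.01 to 0.47 in untreated compared with WT mice.

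The remaining groups showed small differences. Among the complexins, Cplx1 was at 563, 473 and 550 CPM in WT, 662, 576 and 529 CPM in untreated and 501, 497 and 499 CPM in treated mice. Treated mice were nearly equal to each other and below every untreated mouse, by −0.24 ± 0.10 (unadjusted P = 0.039, adjusted p = 0.889). Cplx2, the complexin of most excitatory and projection neurons, was lower in every HD mouse than in every WT mouse, but its estimates of −0.24 ± 0.09 and −0.23 ± 0.09 did not pass (adjusted p = 0.114 and 0.177). Of the genes for SNARE disassembly (Nsf, Napa, Napb), Napb, the brain form of the SNAP adaptor, had the largest estimate, 0.50 ± 0.14 in untreated mice (adjusted p = 0.0549). Of Rab3a, Rab3b, Rab3c and the effector Rph3a, which bring vesicles to the active zone, none passed, and Rph3a had the largest estimate, 0.44 ± 0.18 (adjusted p = 0.134).

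**Figure D3:**
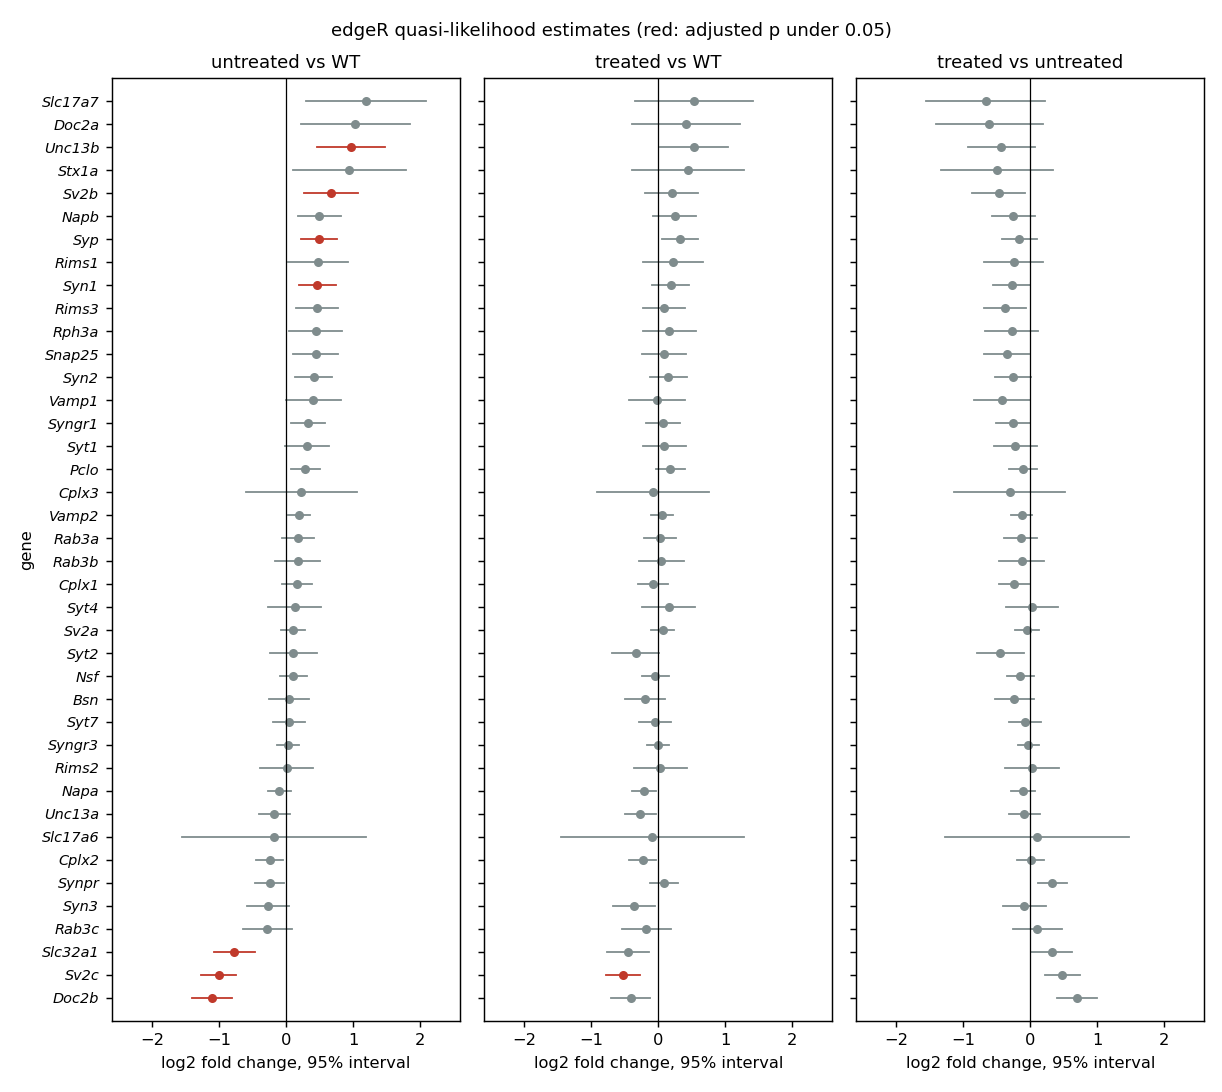
Log2 fold change (point) and 95% interval (line) of the 40 genes in the 3 comparisons, ordered by the estimate in untreated compared with WT mice; red marks an adjusted p under 0.05. In the first panel 4 genes are red on the right and 3 on the left, in the second only Sv2c is red, and in the third none is, with 31 of the 40 points below 0.

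In treated compared with WT mice 1 of the 40 genes passed (Sv2c, lower), where 3.69% of all genes did (0.904% higher and 2.78% lower). The median estimate of the 40 genes was 0.05, with 23 above 0 and 17 below (50.6% and 49.4% of all genes), and the groups did not overlap for 1 gene higher and 7 lower (13.4% and 15.1% of all genes, 28.6% in all). Both comparisons use the same WT mice, so their values are set side by side only: for Unc13b 0.97 and 0.53, for Sv2b 0.67 and 0.20, for Doc2b −1.11 and −0.41. The figures of the study use unadjusted P under 0.05 with at least 2-fold change, whereas its methods state P under 0.01 with more than 2-fold change. Counts at the stricter P are given at the end. By the rule of the figures, 4 of the 40 genes were differential in untreated mice (Slc17a7 and Doc2a higher, Doc2b and Sv2c lower) where 8.16% of all genes were (5.57% higher and 2.58% lower). In treated compared with WT mice 0 were, against 5.22% of all genes (3.84% higher and 1.38% lower). At an unadjusted P under 0.05 alone the counts were 21 genes in untreated mice, 16 higher and 5 lower (28.6% of all genes, 15.0% and 13.7%), and 9 in treated mice, 2 higher and 7 lower (21.4%, 9.78% and 11.6%). DESeq2 called 16 genes in untreated mice, 12 higher and 4 lower, where it called 17.9% of all genes to which it gave an adjusted p (9.12% higher and 8.75% lower). In treated mice it called 3 (Sv2c and Slc32a1 lower, Syp higher), where it called 10.8% of all genes (4.80% higher and 6.01% lower).

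Treated compared with untreated mice is the comparison of the HTT guides, since both groups carry the HD allele and CasRx. By edgeR's test 0 of the 40 genes passed, as did 0 of the 19463 genes tested (a background of 0%), and DESeq2 called 1 of the 40, Doc2b, and 49 genes in all (0.320%). At an unadjusted P under 0.05 there were 12 of the 40 genes, 4 higher (Doc2b, Sv2c, Synpr and Slc32a1) and 8 lower (Snap25, Vamp1, Syt2, Cplx1, Rims3, Syn1, Syngr1 and Sv2b), where 5.50% of all genes reached it (2.5% higher and 3.0% lower). The groups did not overlap for 20 genes, 4 with treated mice above and 16 with treated mice below untreated mice, where 15.8% of all genes did not overlap (6.92% above and 8.83% below). The 4 above were the same 4 genes as those higher at an unadjusted P under 0.05. The median estimate was −0.16 against −0.01 for all genes, with 9 estimates above 0 and 31 below (46.3% and 53.7% of all genes), and 0 genes had a 2-fold change at unadjusted P under 0.05 (0.771% of all genes, 0.360% higher and 0.411% lower).

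The genes varied far more among WT than among treated mice. The median coefficient of variation of their CPM amounted to 17.9% among WT, 11.9% among untreated and 4.43% among treated mice. WT mice were the most variable group for 32 of the 40 genes, against 54% of all genes, and treated mice the least variable for 34, against 50.8% of all genes. Within WT, mouse 1 was the highest for 28 genes, but it was the lowest for 4, Sv2c, Doc2b, Slc32a1 and Syn3. For Sv2c, Doc2b and Slc32a1 it was still above all untreated mice.

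Levels of cell type markers also differed between groups, in some lists and not in others. Calls among them are to be read against all genes, of which 10.7% passed in untreated and 3.69% in treated compared with WT mice. The cortical excitatory list summed to 297 to 575 CPM in WT, 653 to 858 CPM in untreated and 497 to 523 CPM in treated mice, with 3 of the 12 markers tested higher and 0 lower in untreated compared with WT mice. At an unadjusted P under 0.05, 8 of the 12 were higher (15.0% of all genes). By the same limit 1, at −0.51, was lower (13.7% of all genes), so the markers of this list did not all move together. The projection neuron list summed to 9168 to 12129 CPM in WT, 3168 to 3757 CPM in untreated and 4879 to 4949 CPM in treated mice, with 15 of 15 markers lower in untreated and 11 of 15 lower in treated compared with WT mice. A list of 12 pan-neuronal markers had 2 higher and 0 lower in untreated mice, and 0 passed in treated compared with WT mice. Its sums were 4435 to 5414 CPM in WT, 5704 to 6434 CPM in untreated and 5513 to 5863 CPM in treated mice. Every HD mouse, treated or not, was thus above every WT mouse in this sum. A GABA interneuron list summed to 1374 to 1641 CPM in WT, 1361 to 1384 CPM in untreated and 1238 to 1326 CPM in treated mice. In untreated compared with WT mice 1 of its 11 markers was higher and 2 were lower, with a median estimate of 0.38. It includes Gad1 and Gad2, which GABAergic projection neurons also express, so its sum is not that of interneurons alone. Microglial markers summed to 358 to 398 CPM in WT, 459 to 1192 CPM in untreated and 565 to 775 CPM in treated mice, with 1 of 9 higher in untreated mice. Choroid plexus markers summed to 66.2, 3809 and 1235 CPM in WT mice 1 to 3 and to 37.4 to 1302 CPM in HD mice. Of 10 T cell markers 5 were higher and 1, Cd4, lower in untreated compared with WT mice, and 0 were higher and 1 lower in treated mice, with sums of 70.2 to 82.1 CPM in WT, 32.6 to 101 CPM in untreated and 42.7 to 54.4 CPM in treated mice. Of 5 red blood cell markers 0 passed edgeR's test in either HD group (0 at an unadjusted P under 0.05 in untreated and 5 in treated mice, all 5 lower), and their sums were 107 to 190 CPM in WT, 3.09 to 67.3 CPM in untreated and 2.77 to 51.5 CPM in treated mice. Of 6 endothelial markers 1 was higher in each HD group, with sums of 164 to 195 CPM in WT, 207 to 248 CPM in untreated and 214 to 232 CPM in treated mice. Among 9 oligodendrocyte markers, 3 passed in untreated compared with WT mice (2 of them lower) and 1, higher, passed in treated mice. Among 9 astrocyte markers the single one that passed was higher in treated compared with WT mice. The dopamine neuron marker Slc6a3 was near 0 in all libraries, at 0.340 CPM or less. The part of these cell types in the levels of the 40 genes was not tested.

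**Figure D4:**
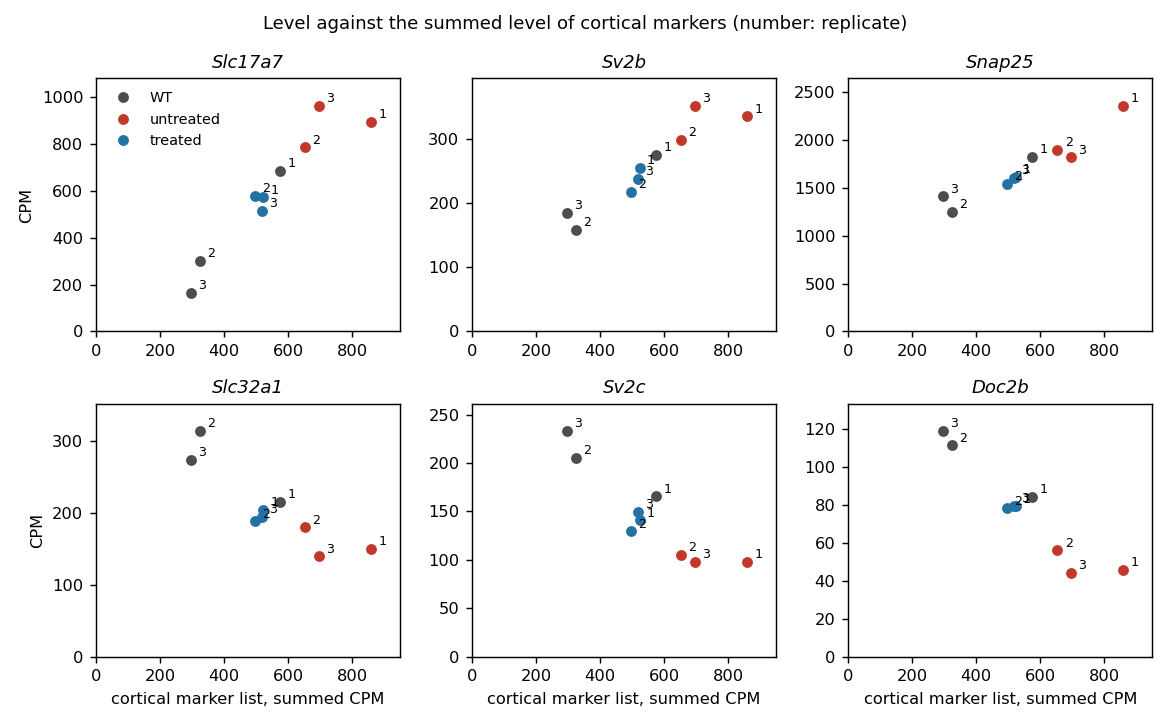
CPM of 6 genes against the summed CPM of the cortical excitatory marker list, 1 point for each of the 9 mice, coloured by group and numbered by replicate. Slc17a7, Sv2b and Snap25 run upwards and Slc32a1, Sv2c and Doc2b run downwards along the axis, and WT mouse 1 sits beside the treated mice in every panel except that of Snap25, where it lies nearer to untreated mice.

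In a fit with the cortical marker level as a covariate, added after the data were seen, 0 of the 40 genes passed in untreated compared with WT mice (edgeR's test, and 33 or 0.170% of all genes did). The estimates of the falling genes kept their sign at −0.60 for Sv2c, −0.61 for Doc2b and −0.33 for Slc32a1 (adjusted p = 0.2, 0.196 and 0.622). Those of the rising genes went to 0.21 for Unc13b, 0.11 for Syp, 0.07 for Sv2b and 0.01 for Syn1. The cortical sums did not overlap between untreated mice (653 to 858 CPM) and WT mice (297 to 575 CPM). This fit therefore cannot separate the marker level from the group, for the rising or the falling genes. With Y-linked expression as a covariate 2 genes passed, Doc2b and Sv2c, and 1.29% of all genes did. Leaving out untreated mouse 1 lowered the count from 7 to 3 (8.18% of all genes passed), and each of the 7 libraries other than it and WT mouse 1 gave 4 when left out (4.57% to 7.40% of all genes). Scaling to library size alone gave 11 genes, 8 higher and 3 lower, in place of 4 and 3, where 10.6% of all genes passed (5.89% higher and 4.74% lower).

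Leaving out WT mouse 1 raised the count in untreated compared with WT mice to 18 of the 40 genes, 15 higher and 3 lower, where 12.9% of all genes passed (5.92% higher and 7.0% lower). The 7 genes called with all mice were among them, with estimates of −1.14 for Sv2c, −1.25 for Doc2b, −0.92 for Slc32a1, 1.30 for Unc13b, 0.62 for Syp, 0.93 for Sv2b and 0.62 for Syn1 (adjusted p from 0.000221 to 0.00574). The 11 others all rose. Slc17a7 reached 1.90, Doc2a 1.56 (adjusted p = 0.00916) and Stx1a 1.55 (adjusted p = 0.00688). Rims1 reached 0.77 and Rims3 0.56, Rph3a 0.66, Napb 0.63, Snap25 0.60, Syn2 0.49, Syngr1 0.46 and Pclo 0.36, at adjusted p from 0.00433 to 0.0447. Without WT mouse 1, 8 genes passed in treated compared with WT mice, where 5.46% of all genes did (1.99% higher and 3.46% lower). Sv2c (−0.66), Slc32a1 (−0.59) and Doc2b (−0.55) fell, and Slc17a7 (1.24), Unc13b (0.87), Rims1 (0.52), Sv2b (0.46) and Syp (0.46) rose (adjusted p from 0.0055 to 0.0463).

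Genes around this set were counted in 4 lists, to be read against the 10.7% of all genes that passed in untreated compared with WT mice. Of 24 other fusion genes 5 passed in untreated compared with WT mice, 4 higher and 1 lower. Syt6, a synaptotagmin, fell (log2 fold change −1.05 ± 0.13, adjusted p = 0.00167), and it also fell in treated mice (−0.55 ± 0.13, adjusted p = 0.0456). Stxbp5 (tomosyn), which binds syntaxin in place of VAMP2, rose by 0.41 ± 0.09 (adjusted p = 0.0252), as did Syt13 by 0.94 ± 0.21 (adjusted p = 0.026). Of 24 other active zone and calcium channel genes 3 passed. Unc13c (Munc13-3) fell (−1.11 ± 0.23, adjusted p = 0.0194), whereas its paralog Unc13b rose. Cacna1e, the R-type calcium channel, fell too (−0.38 ± 0.08, adjusted p = 0.0171), and Rab27b, a GTPase of secretory vesicles, rose (0.41 ± 0.11, adjusted p = 0.045).

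Of 16 other vesicle genes 2 passed, both lower and both transporters. Slc18a3, the vesicular acetylcholine transporter, fell (−1.34 ± 0.17, adjusted p = 0.00214), as did Slc17a8 (VGLUT3), which cholinergic interneurons also use (−0.80 ± 0.20, adjusted p = 0.0353). Slc18a3 is also in the list of 6 cholinergic markers, of which 4 were lower in untreated mice. Of 26 vesicle endocytosis genes Snap91, a clathrin assembly protein, was higher (0.42 ± 0.10, adjusted p = 0.0344) and Ap2b1, a clathrin adaptor subunit, lower (−0.28 ± 0.07, adjusted p = 0.0391), and Ap2b1 was lower in treated mice too (−0.38 ± 0.07, adjusted p = 0.0235). In treated compared with untreated mice 0 genes of these 4 lists passed edgeR's test, 2 to 4 in each list had an unadjusted P under 0.05 (5.50% of all genes), and 13 to 20 in each had estimates below 0.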

How the data were processed

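The mouse table holds raw counts per Ensembl gene for 9 striatal libraries, deposited by the authors as whole numbers without normalization. Per the labels, RNA was reverse transcribed from oligo-dT in a 3′ mRNA kit. The methods name STAR as the aligner, whereas the submitters' processing notes list Trimmomatic 0.39, FastQC 0.11.9, HISAT2 2.2.1 and featureCounts 2.0.1. The mouse genome build and the use of strand are not given in the sources used here. The pig table of the series was not used here.

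Identifiers were named from a gene table (52081 of 55357). Counts were filtered with filterByExpr, scaled by TMM factors and fitted in edgeR 4.0.16 (R 4.3.3) with glmQLFit and glmQLFTest over all 9 libraries (6 residual degrees of freedom), and p-values were adjusted by Benjamini-Hochberg over 19463 genes. A gene was called at an adjusted p under 0.05. DESeq2 1.42.0 was an alternative. The fit was tested on simulated data. No 2 libraries of a group agreed within sampling noise. Levels are CPM, with 148 counts or more for every gene in every library. Each mouse's values are given for genes called in either HD group compared with WT, genes at unadjusted P under 0.05 in treated compared with untreated mice, and Snap25, Stx1a, Vamp2, Syt1 and the 3 transporters. Of the other genes the largest change of a role group could be named, and of each neighbouring list up to 3 called genes with the smallest P. The members, lists and rules were chosen with earlier results of these data known. Whether the 3 mice of a group came from separate litters is not given. The p-values set a difference between groups against the spread between these mice, estimated with information shared across genes.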

Additional observations from a re-analysis of the deposited data

How the results depend on the processing

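Among the 9 libraries left out in turn, WT mouse 1 moved the number of calls in untreated compared with WT mice most. The genes of the 40 called in untreated compared with WT mice numbered 7 as reported, 11 with library sizes alone, 16 by DESeq2, 3 without a filter on low counts, 3 in a fit of the 2 groups only, 2 with Y-linked expression as a covariate, 0 with the cortical marker covariate (chosen after seeing the data), 4 at unadjusted P under 0.05 and 2-fold, 2 at P under 0.01 and 2-fold and 21 at P under 0.05, and from 3 to 18 with single libraries left out. With the replicate number as a block they numbered 11; the numbers did not pair the mice (correlations of deviations from −0.08 to 0.24), and the block left the counts at 1 and 0 in the other comparisons. In treated compared with WT mice the count of 1 became 3 by DESeq2, 9 at P under 0.05 and 0 with library sizes alone, upper quartile factors, no filter, a fit of 2 groups, either covariate or a 2-fold rule, and ran from 0 to 8 with libraries left out. In treated compared with untreated mice it was 0 except 1 by DESeq2 and 12 at P under 0.05. The cause was not tested.

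The median estimate moved from 0.18 to 0.31 (Y-linked covariate) and −0.064 (cortical covariate) in untreated, from 0.05 to 0.18 and −0.089 in treated compared with WT mice, and from −0.16 to 0.0052 (cortical covariate) in treated compared with untreated mice. Left-out libraries kept it at 0.09 to 0.27, −0.02 to 0.14 and −0.22 to −0.12.

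Across these alternatives 44 estimates were compared, those of the 7 genes always given mouse by mouse and those of the other 12 genes so given where the unadjusted P was under 0.05, and 13 of them changed sign in the cases that follow. Slc17a6 in untreated, treated compared with WT and treated compared with untreated mice gave 0.27, 0.22 and −0.050 with the replicate block and 1.03, 0.53 and −0.50 with the cortical covariate. Slc17a6 ran with libraries left out from −0.65 to 1.10, from −0.55 to 1.21 and from −0.12 to 0.25. With the cortical covariate, untreated compared with WT mice gave −0.10 for Slc17a7, −0.062 for Snap25, −0.35 for Stx1a, −0.055 for Syngr1 and −0.065 for Syt1, treated compared with WT gave −0.13 for Snap25, −0.041 for Stx1a and −0.075 for Syt1, and treated compared with untreated gave 0.16 for Slc17a7 and 0.31 for Stx1a. Without WT mouse 2, treated compared with WT gave −0.017 for Snap25 and −0.024 for Syt1. Of the remaining values of these 44 estimates, 733 kept sign and side of the threshold, 59 lost and 21 gained a call. Of the 13 estimates of the same genes at a larger P, 12 also changed sign in at least 1 fit, among them Sv2b (−0.053 to 0.46), Syn1 (−0.012 to 0.34) and Vamp1 (−0.17 to 0.48) in treated compared with WT mice. Every one of the 40 genes had 148 counts or more in each library.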
